A study of Drosophila melanogaster with 56 samples.

Results

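Heads of Drosophila melanogaster after 48 h without food were compared with heads taken at 0 h, on 9 of the 56 arrays of the study. The members are the arrays labelled as head at 48 h of fasting (4 arrays) and head at baseline, 0 h (5 arrays), and all 18769 non-control probe sets on them. The study sampled pools of flies at 0, 24 and 48 h and divided them into antenna, palp with proboscis, head and body. Heads had been freed of their chemosensory organs, so that brain, eyes, head fat body, circulating blood cells, muscle and cuticle could contribute RNA. Every head array was hybridised with amplified RNA from a pool of flies. The strain, sex and age of the flies are not given in the sources used here. No group was kept on food for 24 or 48 h, so fasting cannot be told apart from age or elapsed time. Values are log2 signals. "Rose" and "fell" are used for differences with an adjusted p under 0.05 from limma, a linear model fitted to every feature at once, and ± stands before the standard error of a log2 difference.

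Flies store energy as triglyceride and glycogen in the fat body, which also surrounds the brain. Insulin-like peptides from brain neurosecretory cells promote growth and storage, whereas adipokinetic hormone, made in the corpora cardiaca, mobilises stored fat and sugar through its receptor on fat body cells. When amino acids run short, the GATOR1 complex holds the TOR kinase down, the GATOR2 complex opposes GATOR1, Sestrin proteins bind GATOR2, and cells recycle their own contents by autophagy.

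The head arrays were not all alike. At 0 h, replicate 5, whose pool has no array at 48 h, had 7.44% of features more than 2-fold away from the other arrays of its group, against 2.11% to 4.94% for the other 0 h arrays. The 0 h array of replicate 2 had the lowest mean correlation with its group (0.946) and the highest mean signal of 4 gut transcripts, 13.74, in a group that ran down to 2.63. These gut transcripts lay between 6.63 and 11.40 at 48 h, and 0 of 7 tested gut markers passed the test. The excess of 3′ over 5′ signal of control transcripts, a sign of shorter RNA, was 2.89 to 5.26 at 0 h and 3.47 to 7.06 at 48 h. With that excess as a covariate 1807 features changed, and with the gut signal as a covariate 2317 did, against 2318 with neither. Of 12 antenna and palp markers, 9 were below 4 on every 0 h array and 7 on every 48 h array. Those at 4 or more on every array were 1 at 0 h and 3 at 48 h. Of the 3 tested, 0 passed the test, with a median of 1.28. All 7 photoreceptor markers were above 4 on every array.

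Between 0 h and 48 h, 2318 of 9083 tested features changed (25.5%), of which 1199 rose (13.2%) and 1119 fell (12.3%). Large changes were more often falls: 465 features fell at least 2-fold (5.12%) and 206 rose at least 2-fold (2.27%), and at 4-fold the counts were 127 and 44. The median difference over all tested features was 0.08. With the pool of flies as a block, which the labels support for 3 pools, 4524 features changed, 2592 upward and 1932 downward, and 2272 of the 2318 were among them. The count of rises was 747 without the 48 h array of replicate 4 and 1946 without the 0 h array of replicate 5. In all, 1272 features passed the test with every single array left out and had no overlap between the 0 h and 48 h arrays, 588 upward (6.47%) and 684 downward (7.53%).

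**Figure D1:**
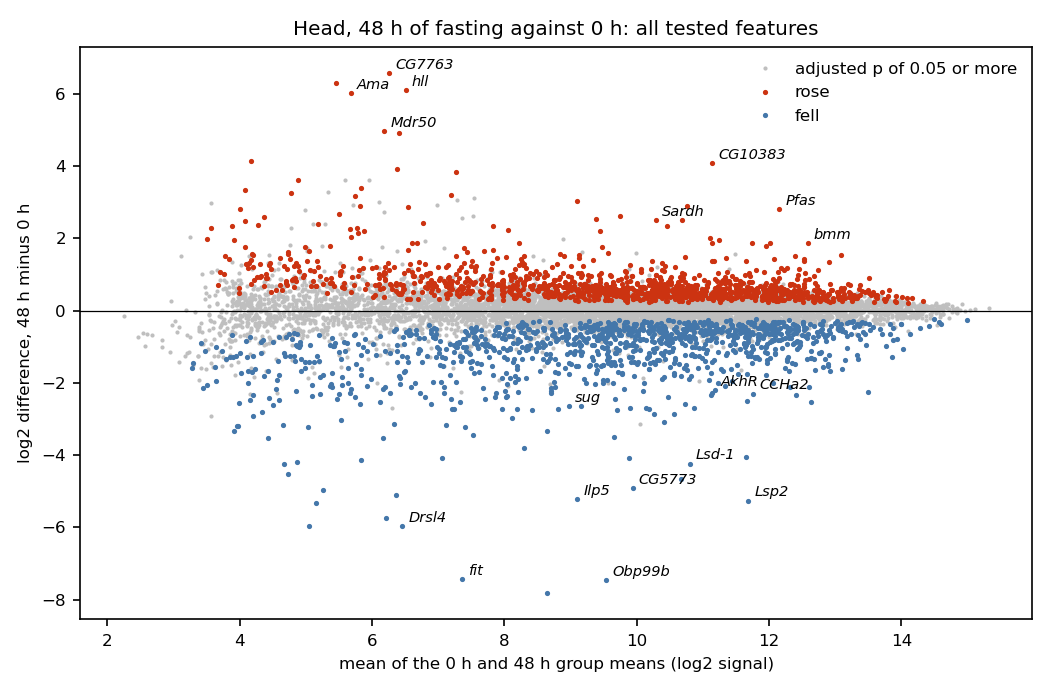
Log2 difference between 48 h and 0 h (y axis) against the mean of both group means (x axis, log2 signal) for the 9083 tested features in head. Red points rose and blue points fell at an adjusted p under 0.05, and the blue points reach further from 0 than most red points.

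Both brain insulin-like peptide genes tested fell, by unequal amounts. Ilp5, a peptide of the brain insulin-producing cells, gave log2 signals of 11.77, 11.31, 12.01, 12.06 and 11.35 at 0 h and 7.14, 7.19, 6.03 and 5.62 at 48 h. The groups were far apart, and the 48 h arrays with the lowest signals were replicates 3 and 4. Ilp5 fell by 5.21 ± 0.44 (37-fold, adjusted p = 3.34e-06). Ilp2, a second peptide of the same cells, gave 13.14, 12.95, 12.98, 13.05 and 13.02 at 0 h and 12.57, 12.30, 12.62 and 12.20 at 48 h. Its groups did not overlap either, but the fall was -0.61 ± 0.14 (adjusted p = 0.00838), and it lost its call in the fit over all 56 arrays. Of 5 tested genes of this list, or 4 without daw, which was placed on it in error, 3 fell and 1 rose: Sdr, a secreted decoy of the insulin receptor, fell (-0.64 ± 0.12, adjusted p = 0.00134), and ImpL2, an insulin-binding protein, rose (0.83 ± 0.20, adjusted p = 0.00984). Of the 5 genes, 80% passed the test, against 25.5% of all tested features. Ilp3 was not analysed here.

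Transcripts of the adipokinetic hormone receptor, of a lipase and of a lipid droplet protein changed. AkhR, the adipokinetic hormone receptor, gave 12.52, 12.02, 12.31, 12.39 and 12.16 at 0 h and 10.16, 10.18, 10.04 and 9.97 at 48 h. The 48 h arrays lay close together, below every 0 h array, and AkhR fell by 2.197 ± 0.12 (4.58-fold, adjusted p = 6.08e-08). Akh itself gave 12.81, 13.75, 12.87, 13.23 and 12.67 at 0 h and 13.81, 13.85, 14.13 and 14.03 at 48 h, and rose by 0.89 ± 0.21 (adjusted p = 0.00801). The groups did not overlap, though replicate 2 at 0 h came just below the lowest 48 h array. The call for Akh was lost in the fit over all 56 arrays. bmm, which encodes the main fat body triglyceride lipase, gave 11.74, 11.81, 11.50, 11.71 and 11.49 at 0 h and 13.71, 13.37, 13.48 and 13.50 at 48 h. All 48 h arrays were above all 0 h arrays, and bmm rose by 1.87 ± 0.11 (3.65-fold, adjusted p = 9.27e-08). Lsd-1, a perilipin that coats lipid droplets, gave 13.42, 12.61, 13.27, 13.16 and 12.12 at 0 h and 7.97, 9.75, 9.01 and 8.01 at 48 h. It fell by 4.23 ± 0.39 (18.8-fold, adjusted p = 7.13e-06), with no overlap. Of 9 tested genes of the axis, 3 rose and 2 fell (55.6% in all, against 25.5% of all tested features). The median was 0.19, and the block by pool gave 4 falls and a median of 0.07. The lipase gene mag rose, but 3 of its 5 arrays at 0 h were below 4, so the size of its rise was not measured. mag is also on the list of gut digestive enzymes, and gut signal varied widely between the 0 h head arrays. With the gut signal as a covariate the axis still had 3 rises.

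**Figure D2:**
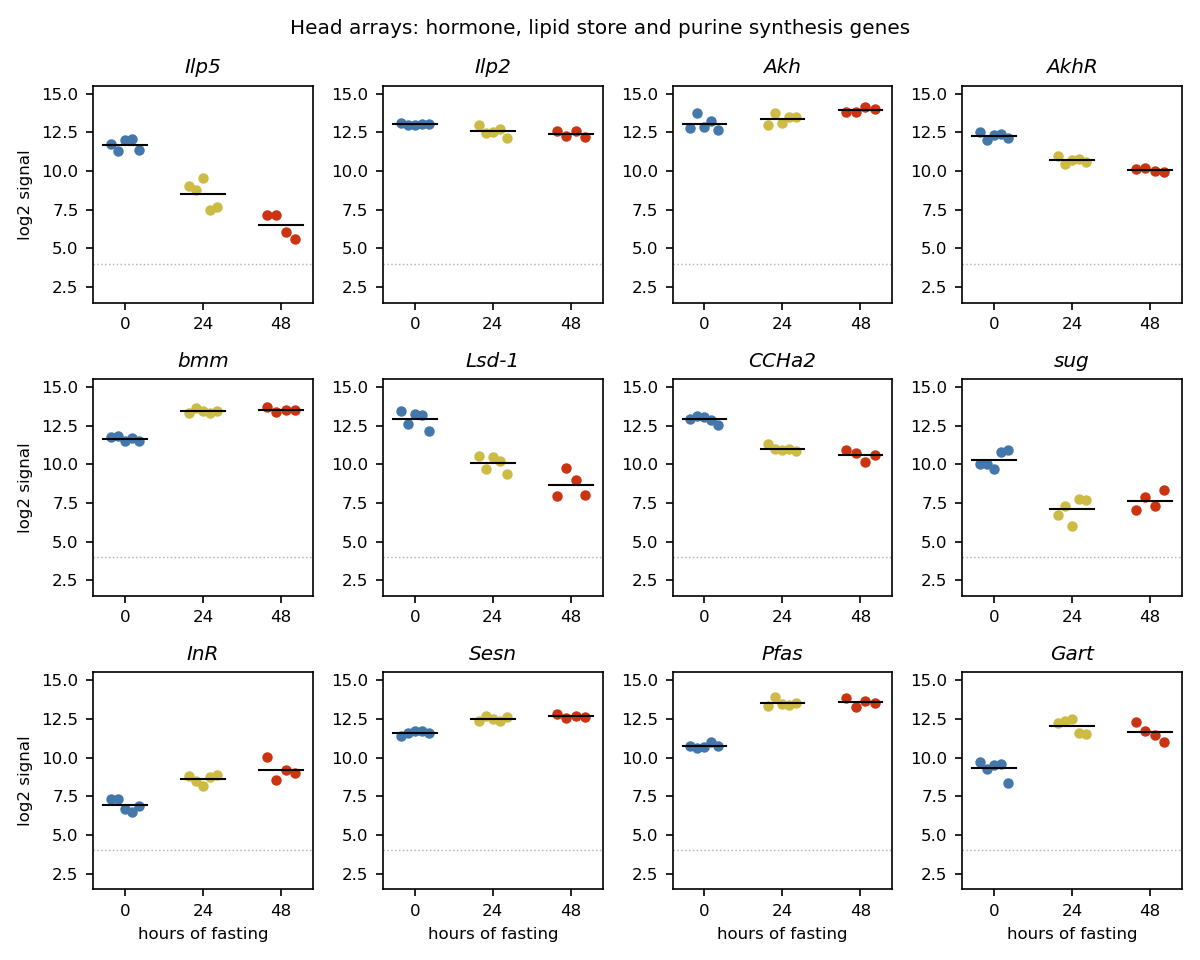
Log2 signal (y axis) of 12 hormone, lipid store, nutrient sensing and purine synthesis genes on each head array at 0, 24 and 48 h of fasting (x axis). Points are arrays, bars are group means, and the dotted line is the minimum of 4 used for testing. Ilp5, AkhR, Lsd-1, CCHa2 and sug are lower at 48 h, and bmm, InR, Sesn, Pfas and Gart are higher.

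The insulin receptor gene rose while its ligand gene Ilp5 fell. InR gave 7.31, 7.33, 6.69, 6.49 and 6.88 at 0 h and 10.01, 8.58, 9.17 and 8.97 at 48 h. The highest 0 h array was below the lowest 48 h array, and InR rose by 2.24 ± 0.27 (4.74-fold, adjusted p = 5.37e-05). Downstream, chico, the insulin receptor substrate, rose by 0.98 ± 0.13 and the kinase gene Pdk1 by 0.73 ± 0.10. Of 12 tested genes of the insulin receptor, PI3K and TOR list, 5 rose and 0 fell (41.7% in all, against 25.5% of all tested features). The median was 0.50, or 0.33 with the 3′ excess as a covariate. The count of rises was 3 without the 48 h array of replicate 3 or 4. It was 8 either without the 0 h array of replicate 5 or in the fit blocked by pool. foxo, the transcription factor at the end of the pathway, differed by 0.18 ± 0.26 (adjusted p = 0.638). Among genes that report amino acid supply to TOR, Sesn, a leucine sensor of the Sestrin family, gave 11.39, 11.59, 11.70, 11.74 and 11.57 at 0 h and 12.79, 12.53, 12.70 and 12.65 at 48 h. Its groups were separate, with a rise of 1.07 ± 0.10 (adjusted p = 9.69e-06). The GATOR2 genes mio (1.38 ± 0.20) and Wdr59 (1.02 ± 0.20) and the gene unk (1.06 ± 0.22) also rose. Of 18 tested genes of the list, 8 rose and 0 fell (44.4% in all). Without the 0 h array of replicate 1, 3 or 4 or the 48 h array of replicate 3, 5 rose.

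Several genes of sugar sensing changed, and few of glycolysis passed the test. sug (sugarbabe), a zinc finger gene induced by dietary sugar, gave 10.02, 10.01, 9.72, 10.79 and 10.93 at 0 h and 7.06, 7.89, 7.33 and 8.36 at 48 h. Every 48 h array was below every 0 h array, and sug fell by 2.63 ± 0.38 (6.2-fold, adjusted p = 0.000267). The genes for Mondo and its partner bigmax, which together sense sugar, rose by 0.47 ± 0.09 and 0.88 ± 0.15. Max, a partner of Myc, rose by 0.63 ± 0.09. Of 31 tested nutrient and hormone transcription factors, 11 rose and 3 fell (45.2% in all, against 25.5% of all tested features). Without the 0 h array of replicate 3 or the 48 h array of replicate 2 or 4, 7 rose. Without the 0 h array of replicate 4 or the 48 h array of replicate 2 or 3, 1 fell. Without a kinase gene, Lk6, placed on that list in error, 10 of 30 rose. Treh, the trehalase that splits the blood sugar of flies, rose by 0.73 ± 0.10, and the maltase gene Mal-B2 rose by 1.502 ± 0.18. Treh was the single rise among 17 tested genes of trehalose, glycogen and gluconeogenesis, of which 3 fell. The share that passed, 23.5%, was near the 25.5% of all tested features. With the 3′ excess as a covariate 1 of the 17 genes fell, and with the block by pool 5 fell and 3 rose. Of 14 glycolysis and pyruvate genes, Pfrx rose (0.95 ± 0.13), Mpc1, a subunit of the mitochondrial pyruvate carrier, fell (-0.48 ± 0.12), and 12 did not pass the test.

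Fatty acid oxidation genes fell, in heads whose lipase gene bmm rose. Of 14 tested members, 10 fell and 0 rose (71.4% in all, against 25.5% of all tested features). Their median was -0.78, against 0.08 over all features. Acox57D-d, which starts fatty acid oxidation in peroxisomes, gave 8.50, 8.29, 8.27, 8.49 and 8.55 at 0 h and 6.09, 5.75, 5.79 and 6.27 at 48 h. The groups were separated by more than the range of either, and it fell by 2.44 ± 0.18 (adjusted p = 9.49e-07). The carnitine acetyltransferase gene CRAT fell by 1.20 ± 0.15, Mtpbeta, of the mitochondrial trifunctional protein, by 0.80 ± 0.09, and CPT2, the inner carnitine palmitoyltransferase, by 0.42 ± 0.09. Fatty acid and glyceride synthesis moved both ways: of 18 tested members, 7 rose and 5 fell (66.7% in all). With the 3′ excess as a covariate 3 fell. The rises included the phosphatidate phosphatase gene Lpin (0.96 ± 0.11), the acyltransferase gene mino (0.87 ± 0.11) and SCAP, the escort of the SREBP transcription factor (0.76 ± 0.13). The falls included mdy, the enzyme of the last step of triglyceride synthesis (-0.65 ± 0.11). Of 9 acyl-CoA synthetases, which activate fatty acids, hll rose and Fatp3 (-1.67 ± 0.19) and Fatp2 (-0.97 ± 0.17) fell, which is 33.3% in all. The sterol carriers Npc2h (-2.10 ± 0.18) and Npc2g (-1.75 ± 0.32) fell, and the lipophorin receptor gene LpR1 rose (0.68 ± 0.08).

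The enzymes that build purines and handle one-carbon units rose together. Of 17 tested members, 12 rose and 0 fell (70.6% in all, against 25.5% of all tested features), and the median was 0.71. The block by pool gave 2 falls. Pfas, which catalyses a middle step of purine synthesis, gave 10.73, 10.61, 10.67, 10.98 and 10.74 at 0 h and 13.82, 13.29, 13.63 and 13.51 at 48 h. The 0 h and 48 h values did not come near each other, and Pfas rose by 2.82 ± 0.13 (7.05-fold, adjusted p = 2.35e-08). Gart, a trifunctional purine enzyme, gave 9.73, 9.28, 9.53, 9.57 and 8.35 at 0 h and 12.30, 11.71, 11.46 and 11.03 at 48 h. Its lowest 48 h array was above its highest 0 h array, and the rise was 2.33 ± 0.32 (adjusted p = 0.000161). Adsl, adenylosuccinate lyase, rose by 1.49 ± 0.12, and Ahcy, which clears S-adenosylhomocysteine, by 1.42 ± 0.20. Nmdmc (1.43 ± 0.26) and pug (1.16 ± 0.22) carry folate units and rose as well. Paics rose by 1.17 ± 0.33 and ras by 0.29 ± 0.10, but each lost its call when some single arrays were left out. Sam-S, Prat2, bur, Cth and Mthfs did not pass the test.

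Some enzymes of amino acid breakdown rose. Of 20 tested members, 5 rose and 1 fell (30% in all, against 25.5% of all tested features), or 8 and 3 with the pool as a block. Sardh, which feeds sarcosine into the one-carbon pool, gave 9.23, 9.29, 9.18, 9.16 and 8.32 at 0 h and 12.06, 11.45, 11.22 and 11.43 at 48 h. Replicate 5 at 0 h was the lowest of its group, and the groups were separate, with a rise of 2.504 ± 0.21 (5.67-fold, adjusted p = 3.77e-06). Bcat, the branched-chain aminotransferase, gave 12.21, 12.27, 12.49, 12.38 and 12.27 at 0 h and 14.004, 13.76, 13.92 and 13.74 at 48 h, also with no overlap and a rise of 1.53 ± 0.10. Ssadh was the single member to fall (-0.36 ± 0.10), and it did not fall without the 48 h array of replicate 3.

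Autophagy genes rose in 11 of 21 tested cases and fell in 0 (52.4% in all, against 25.5% of all tested features). Their median was 0.37, and the block by pool gave 15 rises and 2 falls. Atg9, a membrane protein that supplies lipid to forming autophagosomes, gave 9.71, 9.79, 9.43, 9.77 and 10.33 at 0 h and 11.15, 10.87, 10.84 and 11.33 at 48 h. All 48 h values were above all 0 h values, and Atg9 rose by 1.24 ± 0.23 (adjusted p = 0.00166). The lipid kinase gene Pi3K59F (1.05 ± 0.14), Atg2 (0.79 ± 0.11) and Atg101 (0.64 ± 0.10) rose also. ref(2)P, an adaptor for ubiquitinated cargo, rose by 0.52 ± 0.12. Of 24 tested lysosome and V-ATPase genes, 4 fell and 1 rose, with a median of 0.05. That is 20.8% in all, against 25.5% of all tested features. The falls included the lysosomal mannosidase genes LManII (-1.19 ± 0.15) and LManI (-1.14 ± 0.20) and the lysosomal transporter gene spin (-0.55 ± 0.11).

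Many detoxification genes fell. Of 27 tested glutathione transferases, which conjugate reactive compounds to glutathione, 16 fell and 0 rose (59.3% in all, against 25.5% of all tested features). Their median was -0.71, and 1 rose with the block. With the 3′ excess as a covariate 14 fell, 1 rose and the median was -0.45. GstE3 gave 12.43, 12.33, 12.41, 12.29 and 11.69 at 0 h and 10.73, 10.67, 10.64 and 10.40 at 48 h. Replicate 5 at 0 h was low for its group but still above the 48 h arrays, and GstE3 fell by 1.62 ± 0.18. Of 17 tested UDP-glycosyltransferases, 9 fell and 1 rose (58.8% in all), with a median of -0.65. Ugt301D1 fell by 1.97 ± 0.28, and Ugt36F1, which was below 4 on every 48 h array, fell at least 2.4-fold. Of 66 tested cytochrome P450 entries, 22 fell and 11 rose (50% in all), or 7 rose without the 0 h array of replicate 4. That symbol pattern had taken in Cyp1 and Cyp40, which are cyclophilins; without them 22 of 64 fell and 10 rose. Cyp4ac2 (-2.75 ± 0.24) and Cyp4d21 (-2.71 ± 0.25) fell, and Cyp6t3 rose at least 5.31-fold from below 4 on every 0 h array.

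**Figure D3:**
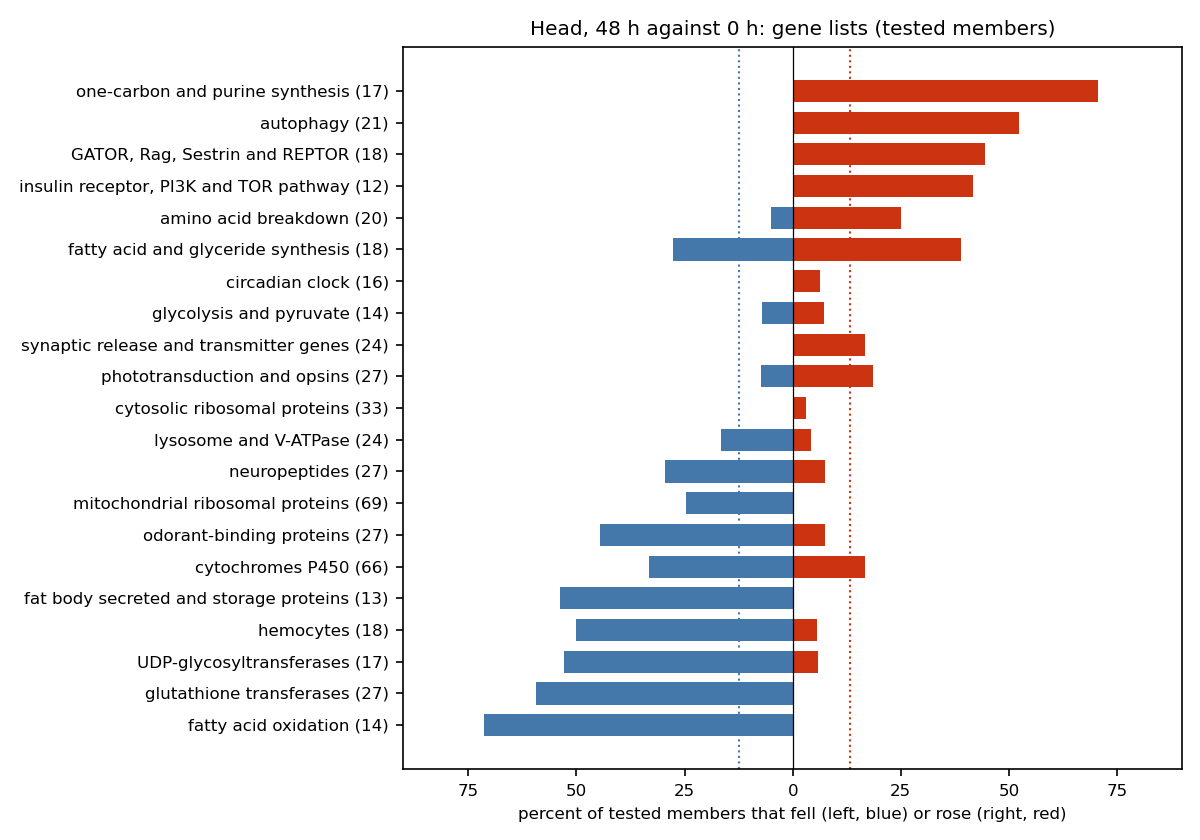
Percent of the tested members of 21 gene lists that rose (red, right) or fell (blue, left) in head at 48 h, with the number of tested members in brackets. Dotted lines mark the percent of all tested features that rose (13.2) and fell (12.3).

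Genes of the head fat body had some of the largest falls. In RNA from whole heads, fewer cells of a type and less RNA per cell cannot be told apart. Obp99b, an odorant-binding protein gene of the fat body, gave 13.91, 13.68, 14.02, 13.40 and 11.32 at 0 h and 5.74, 5.41, 7.77 and 4.29 at 48 h. Replicate 5 at 0 h was more than 2 units below its group, and the groups did not overlap. Obp99b fell by 7.46 ± 0.70 (177-fold, adjusted p = 8.19e-06). fit, a fat body gene responsive to feeding, gave 11.53, 11.56, 11.54, 11.47 and 9.26 at 0 h and 5.13, 4.22, 2.80 and 2.41 at 48 h, where 48 h replicates 3 and 4 were below 4. It fell (adjusted p = 1.4e-05), and with 2 of the 4 arrays at 48 h below 4 the full size of its fall was not measured. Lsp2, a larval serum storage protein, gave 14.19, 14.16, 14.69, 14.59 and 13.95 at 0 h and 10.39, 10.31, 7.77 and 7.78 at 48 h, with a fall of 5.26 ± 0.74. Of 13 tested genes of the fat body list, 7 fell and 0 rose (53.8% in all, against 25.5% of all tested features). With the block 1 rose. Of the 11 left after 2 entries that belong elsewhere were taken off, 7 fell. The summed level of the list was 17.28 to 17.47 at 0 h and 16.81 to 16.87 at 48 h on the log2 scale. apolpp, the lipophorin precursor, fell by 0.43 ± 0.10, and the transferrin gene Tsf1 by 0.65 ± 0.08.

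Most blood cell markers fell. Of the 8 hemocyte markers, 7 fell and 0 rose (87.5% in all, against 25.5% of all tested features). The summed level was 13.25 to 13.85 at 0 h and 11.70 to 12.28 at 48 h. Of the 8, 0 were below 4 on every array of either group. PPO1, a prophenoloxidase of crystal cells, gave 12.16, 11.99, 10.96, 11.60 and 10.99 at 0 h and 8.93, 7.94, 9.52 and 8.89 at 48 h. The 48 h arrays were all below the 0 h arrays, and PPO1 fell by 2.72 ± 0.38 (6.58-fold, adjusted p = 0.000206). The phagocytic receptor genes eater (-1.78 ± 0.27) and NimC1 (-1.51 ± 0.27) and the clotting gene Hml (-1.16 ± 0.15) fell also. srp, a GATA factor of blood cells, differed by -0.38 ± 0.19 (adjusted p = 0.161), and by pool as a block its adjusted p was 0.00125. In the wider hemocyte list, 9 of 18 tested members fell and 1, NimB1, rose (0.87 ± 0.23), which is 55.6% in all. With the block 3 rose.

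Immune genes changed in both directions. Of 10 tested antimicrobial peptide and lysozyme genes, 4 fell and 0 rose (40% in all, against 25.5% of all tested features). Without the 0 h array of replicate 5, 7 fell. The median of -1.51 was -0.77 with the 3′ excess as a covariate. The antimicrobial peptide gene Drs fell by 2.87 ± 0.57, and the drosomycin-like gene Drsl4 fell to below 4 on 3 of 4 arrays. Of 25 tested genes of peptidoglycan recognition, Toll and Imd, 4 rose and 7 fell (44% in all). The recognition protein gene GNBP3 (-1.46 ± 0.29) and spz, the Toll ligand (-0.99 ± 0.11), fell. pirk, an inhibitor of the Imd pathway, gave 7.38, 7.60, 7.11, 7.43 and 6.90 at 0 h and 8.97, 8.55, 9.11 and 8.42 at 48 h. It rose by 1.48 ± 0.21 with no overlap between groups, and the NF-kB gene Rel rose by 0.81 ± 0.16.

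Some neuropeptide genes fell. Of 27 tested, 8 fell and 2 rose (37% in all). Over all tested features 25.5% passed the test and 12.3% fell. There were 5 falls without the 48 h array of replicate 4 and 4 in the fit over all 56 arrays. CCHa2, a peptide of fat body and gut known in larvae to promote insulin release, gave 12.92, 13.14, 13.06, 12.87 and 12.54 at 0 h and 10.93, 10.71, 10.18 and 10.62 at 48 h. The groups were separate, and CCHa2 fell by 2.29 ± 0.16 (4.9-fold, adjusted p = 5.21e-07). Nplp2 (-0.99 ± 0.14), CCAP (-0.87 ± 0.20) and SIFa (-0.74 ± 0.17) fell, and ETH, the ecdysis-triggering hormone, rose by 1.77 ± 0.29, with 2 of the 5 arrays at 0 h below 4. The feeding peptide genes NPF (-0.12 ± 0.10, adjusted p = 0.415) and sNPF (0.11 ± 0.19, adjusted p = 0.695) did not pass the test.

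Few neuron and photoreceptor markers passed the test. Of 7 tested photoreceptor markers, 0 passed the test, and of 7 neuron markers, 1 did: brp, an active zone protein, rose by 1.24 ± 0.36, and lost its call when some arrays were left out. With the block by pool, or without the 0 h array of replicate 5, 3 photoreceptor and 2 neuron markers rose. nSyb, neuronal synaptobrevin, differed by 0.04 ± 0.21 (adjusted p = 0.891). In the wider lists, counts hung on single arrays. Of 24 synaptic genes 4 rose and 0 fell (16.7% in all, against 25.5% of all tested features). Without the 0 h array of replicate 2, 3 or 4 or the 48 h array of replicate 3 or 4, 0 rose. Without the 0 h array of replicate 5, 9 of these genes rose. With the block by pool 10 of them rose, and with the 3′ excess as a covariate 0 did. Of 27 phototransduction genes 5 rose and 2 fell (25.9% in all, against 25.5% of all tested features). The count of rises was 0 without the 48 h array of replicate 4, 11 without the 0 h array of replicate 5, and 10 with the block. Clock genes gave 1 rise among 16 (6.25%), jet (0.65 ± 0.13), or 3 with the block. The clock genes per and tim differed by 0.29 ± 0.17 and 0.19 ± 0.13, and by pool as a block the adjusted p for tim was 0.0498. Of 31 tested ion channel and transmitter receptor genes, 3 rose and 2 fell (16.1% in all), with a median of 0.36. With the block, or without the 0 h array of replicate 5, 15 rose. Without the 0 h array of replicate 1 or 3 or the 48 h array of replicate 4, 0 rose. With the 3′ excess as a covariate 1 rose. The larger fall was that of slo, a calcium-activated potassium channel (-1.12 ± 0.13).

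Among eye pigment and pteridine genes, a few fell. Pu, the GTP cyclohydrolase that starts pteridine synthesis, gave 13.002, 12.92, 13.15, 12.89 and 12.84 at 0 h and 11.32, 11.75, 11.77 and 11.47 at 48 h. All 48 h arrays were below all 0 h arrays, and Pu fell by 1.38 ± 0.14 (adjusted p = 1.23e-05). se, which acts later in drosopterin synthesis, fell by 1.79 ± 0.36, pr by 0.68 ± 0.11 and Dhpr by 0.39 ± 0.09. The carotenoid genes ninaD (-1.90 ± 0.44) and ninaB (-0.54 ± 0.11) fell, and ninaB lost its call in the fit over all 56 arrays. Of 19 eye pigment genes, 4 fell, or 2 without the 0 h array of replicate 1 or 3 or the 48 h array of replicate 1, and 6 rose with the block against 0 without. The median of these genes was 0.09, and 21.1% of them passed the test, against 25.5% of all tested features.

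Glial genes changed in part. wrapper, a glial surface protein, gave 12.57, 12.51, 12.33, 12.33 and 12.42 at 0 h and 10.91, 11.23, 11.32 and 11.15 at 48 h. The groups were separate, and wrapper fell by 1.28 ± 0.15 (adjusted p = 4.53e-05). CAH2 (-1.08 ± 0.15) and alrm, of astrocyte-like glia (-0.62 ± 0.11), fell, and alrm lost its call in the fit over all 56 arrays. The engulfment receptor gene drpr (0.51 ± 0.10) rose, as did the glutamate transporter gene Eaat2 (0.38 ± 0.10). repo, the transcription factor of most glia, differed by -0.13 ± 0.17 (adjusted p = 0.608), and Gs2 by -0.13 ± 0.08. Of 24 tested entries 8 fell and 3 rose. Of 21 without Mdr49, Mdr50 and Oatp74D, which are not glial markers, 6 fell and 2 rose. Over all tested features 12.3% fell and 13.2% rose.

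**Figure D4:**
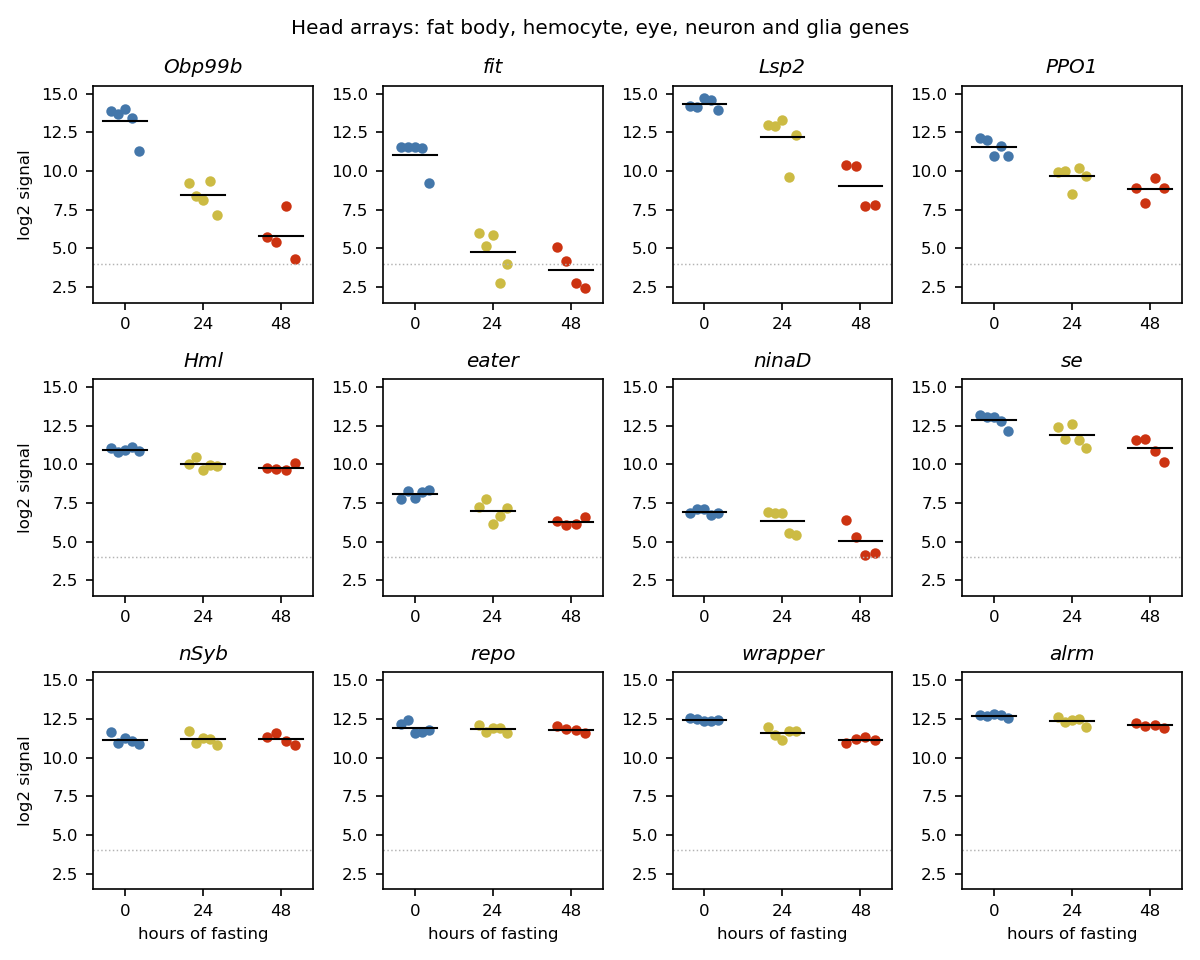
Log2 signal (y axis) of 12 genes of fat body, hemocytes, eye, neurons and glia on each head array at 0, 24 and 48 h (x axis). Points are arrays and bars are group means. Fat body and hemocyte genes are lower at 48 h, whereas nSyb and repo overlap between times.

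A minority of mitochondrial ribosomal protein genes fell, by small amounts. Of 69 tested, 17 fell and 0 rose (24.6% in all), with a median of -0.24. Over all tested features 25.5% passed the test and 12.3% fell. The count was 8 to 10 without the 0 h array of replicate 1 or 3 or the 48 h array of replicate 3 or 4, 37 in the fit blocked by pool, and 26 under cyclic loess scaling. mRpS6 gave 10.63, 10.57, 10.67, 10.46 and 10.57 at 0 h and 10.09, 10.12, 10.14 and 10.004 at 48 h, with no overlap and a fall of 0.49 ± 0.09. Of 33 cytosolic ribosomal protein genes, 1 rose and 0 fell (3.03% in all), or 3 fell with the block. Among 28 ribosome biogenesis entries 3 rose and 1 fell (14.3% in all, against 25.5% of all tested features). The fall was lost without the 0 h array of replicate 1, 2, 3 or 4. Without Ltn1, a ligase of ribosome quality control placed there in error, 2 of 27 rose and 1 fell. The 2 rises were Non1, a nucleolar GTPase (1.04 ± 0.11), and Fib, fibrillarin (0.85 ± 0.18). As written, the list had 6 rises without the 0 h or the 48 h array of replicate 2, 7 without the 0 h array of replicate 5, and 10 with the block.

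Several of the strongest changes were in genes known only by an annotation number. CG7763 gave 3.45, 3.49, 3.19, 2.21 and 2.48 at 0 h and 11.07, 9.25, 9.62 and 8.22 at 48 h, and hll, an acyl-CoA synthetase gene, gave 3.41, 3.56, 3.81, 3.65 and 2.88 at 0 h and 10.05, 9.86, 9.52 and 8.81 at 48 h. Both genes were below 4 on every 0 h array and far above it at 48 h, so that the rise of CG7763 was at least 46.5-fold and that of hll at least 47.1-fold. CG10383 gave 9.33, 9.15, 8.80, 9.06 and 9.17 at 0 h and 13.60, 12.90, 13.19 and 13.03 at 48 h, a rise of 4.08 ± 0.16 from a level already well above background. CG5773 gave 12.79, 12.48, 12.08, 12.39 and 12.24 at 0 h and 8.01, 7.47, 7.50 and 6.95 at 48 h, a fall of 4.91 ± 0.23. The 48 h arrays of both genes were clear of the 0 h arrays. CG14949, also below 4 on every 0 h array, rose at least 24.2-fold. CG7227 and CG3513 were below 4 on every 48 h array, and fell at least 14.1-fold and 13.4-fold. Mdr50, an ABC transporter gene, rose to between 8.24 and 8.97 at 48 h, from below 4 on 4 of the 5 arrays at 0 h.

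The head arrays at 24 h share the 0 h controls, so both differences are given side by side. Ilp5 was -3.21 ± 0.41 at 24 h and -5.21 ± 0.44 at 48 h, and AkhR -1.58 ± 0.11 and -2.197 ± 0.12. The direct difference between 48 h and 24 h passed the test for both (adjusted p = 0.0421 and 0.0251), as it did for 124 features in all (1.37%), 33 upward (0.363%) and 91 downward (1.0%). bmm was 1.78 ± 0.10 and 1.87 ± 0.11, and Pfas 2.77 ± 0.13 and 2.82 ± 0.13. CG12111, a gene of unknown role, was below 4 on every array at 0 h and 24 h and lay between 5.998 and 6.47 at 48 h. BthD, a selenoprotein gene, was below 4 on every array at 0 h and on 4 of 5 at 24 h, and lay between 5.87 and 7.30 at 48 h.

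The change in head was set against the change in each other body part in a single fit of all 56 arrays. Features differed from antenna in 492 cases (5.42%), from palp with proboscis in 368 (4.05%), from body in 1307 (14.4%), and from all 3 in 86 (0.947%), of which 21 were more positive in head (0.231%) and 65 more negative (0.716%). With the pool as a block these counts were 1009, 579, 2165 and 215, and without the 0 h head array of replicate 5 the last was 168. Features were tested by their head signal alone. The counts therefore include features below 4 in other parts, where a fall could not be measured. Ama, a secreted immunoglobulin-domain protein, gave 2.59, 2.25, 2.49, 2.69 and 3.33 at 0 h and 8.60, 7.79, 9.13 and 9.26 at 48 h, which is a rise of at least 25.9-fold. It was below 4 on every 0 h and 48 h array of antenna, palp with proboscis and body. Ilp5 was below 4 on every such array of antenna and body and reached 5.49 at most in palp with proboscis, so that a fall as large as in head could not have been measured there. spirit, a serine protease gene of the Toll pathway, moved up in head (1.04 ± 0.23) and had changes of -0.995, -1.03 and -1.48 in antenna, palp with proboscis and body. Sodq fell in head by 3.13 ± 0.44, against -0.39, -0.55 and -0.97. In body, spirit and Sodq reached at most 4.56 and 4.70. The 6 genes with the widest margins in each direction included 3 that were below 4 in all 3 other parts (Ama, CG15080 and dy) and 5 that were below 4 in 2 of them (Ilp5, Cpr76Bc, CG5653, CG12111 and CG14221), where a fall could not be measured. Cyp6t3 was below 4 in body.

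**Figure D5:**
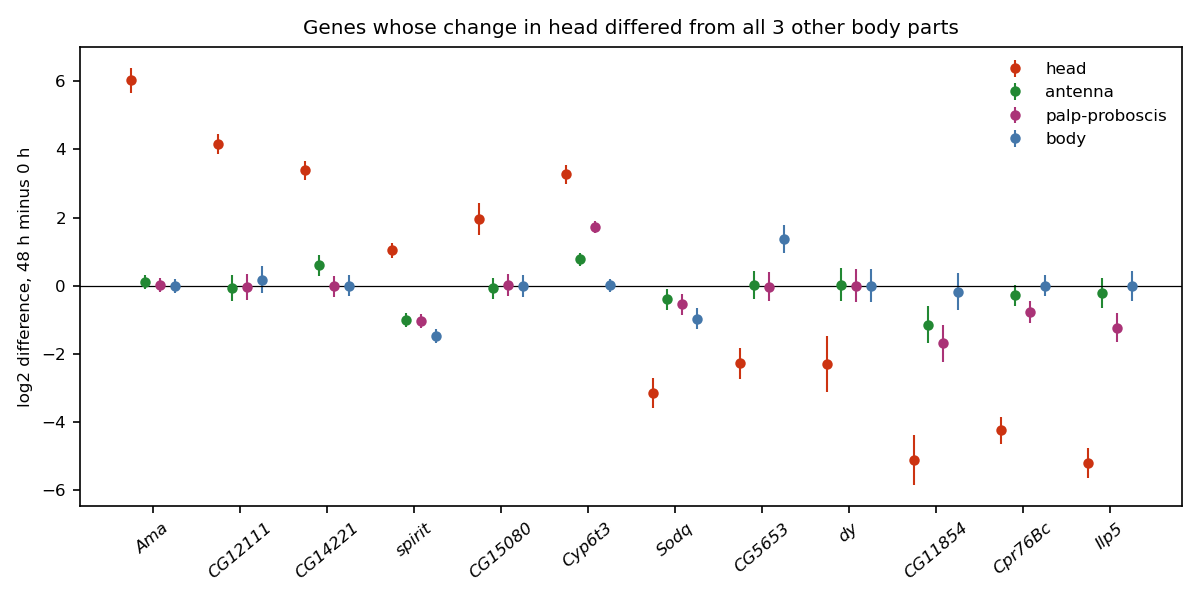
Log2 difference between 48 h and 0 h (y axis) in head, antenna, palp with proboscis and body for 12 genes (x axis) whose change in head differed from all 3 other parts. Points are estimated differences, which include signals below 4, and bars are standard errors. Sodq lies lower, and spirit higher, in head than in the 3 other parts.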

How the data were processed

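Per the labels' protocols, Qiagen RNeasy RNA was amplified by the NuGEN Ovation system and carried biotin. The authors processed the one-colour Affymetrix arrays with GCRMA, per the submitters' processing notes (no version is given there). What they deposited is log2 signal per probe set. All arrays shared nearly one distribution (largest difference between sorted arrays 0.033), so differences in total RNA cannot be read. Of 18952 probe sets, 183 controls were left out. Of the rest 13647 had 1 gene, 402 several and 4720 none in the platform annotation, and 13544 matched RefSeq by gene ID. Of several probe sets of a gene, the brightest over all arrays was used. Testing required a log2 signal of 4 or more on 4 or more of 14 head arrays.

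Differences were tested two-sided with limma 3.58.1 in R 4.3.3, with 3 group means over the 14 head arrays and Benjamini-Hochberg adjustment over 9083 features. p-values measure the spread between arrays of different pools at the same time. The main fit treats arrays of the same pool at different times as independent, though their consensus correlation within pool was 0.469. A fold given as "at least" is the mean of the higher group against 4, for genes under 4 throughout the lower group. Differences between body parts came from 12 group means over 56 arrays. Pool numbers in the labels pair arrays across times: residuals of the 3 pools with both times correlated at 0.31, 0.07 and 0.42, and the block was an alternative. Other alternatives were array weights, scaling, filters, covariates and leaving out each array.

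The members and gene lists were chosen with earlier results of these data known. Lists get counts and a median, with no test. After their values were seen, 10 tested entries on 6 lists were found to belong elsewhere. The lists were kept as first written, and counts without those entries are given beside them where they are described. Named genes were the largest changes that held with every array left out and had no overlap, up to 4 such members from each list, some feeding, clock and marker genes whatever their result, and the 6 largest differences in each direction from all other body parts. Named after their values were seen were Ahcy, CPT2, Mtpbeta, NimB1, Paics, SIFa, Ssadh, brp, drpr, pug, ras, ref(2)P and srp. Plots were made with matplotlib 3.10.9 (Python 3.11.15).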

Additional observations from a re-analysis of the deposited data

Results flagged for a closer look

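Among 318 groups of 4 or 5 arrays of named genes, 15 held an array far from the rest of its group, and chance alone flags about 1 in 20 groups. The 0 h array of replicate 5 accounted for 8 of them. It was the lowest of its group for Obp99b (11.32), fit (9.26), Sardh (8.32), GstE3 (11.69), GstD3 (8.57) and Obp57a (12.62). It was the highest for Clk (9.12) and CG15080 (4.94). The 0 h array of replicate 2 was the lowest for Gs2 (13.86). At 48 h, replicate 1 was the highest for sut1 (9.49) and the lowest for snu (11.41), and replicate 2 was the highest for speck (11.82). Replicate 3 was the highest for CG43673 (6.04) and the lowest for mRpL20 (9.83), and replicate 4 was the lowest for Obp8a (6.94).

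The change in head differed from the change in all 3 other body parts, by the test of the difference itself, for 12 genes named for it. Of these genes, 9 were below 4 throughout 1 or more of the other parts, so the sizes rest in part on signals below 4 and are not measured margins. The fitted difference from the nearest part was 5.92 for Ama, 3.97 for CG12111, 2.79 for CG14221, 2.03 for spirit, 1.93 for CG15080 and 1.55 for Cyp6t3. It was -3.98 for Ilp5, -3.46 for Cpr76Bc, -3.43 for CG11854, -2.29 for dy, -2.26 for CG5653 and -2.17 for Sodq. In head alone, dy missed the threshold (adjusted p = 0.0543), and with the pool as a block its adjusted p was 0.000172.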

How the results depend on the processing

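Of 149 named genes that passed the test, 142 kept direction and call under those of 21 other settings that tested them, and none reversed. The stricter filter, a log2 signal of 6 or more on at least 4 arrays, tested 147 of the 159 named genes. Genes named as largest changes or as list members were chosen because their call held with every single array left out. For them, those settings could not show a lost call. The 7 that lost a call were Ilp2, ninaB, PPO2, Mdr65, alrm and Akh in the fit over all 56 arrays, and sls with the 3′ excess as a covariate. Genes named after their values were seen are not in these counts. Of those, Paics, ras, brp and Ssadh lost calls when some single arrays were left out. Counts of changed, rising and falling features were 4550, 2651 and 1899 with array weights, 4524, 2592 and 1932 with the pool as a fixed replicate block, and 4321, 2528 and 1793 as a random block; leaving out single arrays gave 1579 to 3310, 747 to 1946 and 832 to 1364. The replicate block called tim and dy, which the fit without it did not, and removed no call among named genes. It also called srp, which was named after its values were seen. Against antenna, palp with proboscis, body and all 3, leaving out single arrays gave 420 to 639, 256 to 509, 1048 to 1544 and 59 to 168; array weights gave 1115, 1198 and 241 for antenna, palp and all 3; the block gave 1009, 579, 2165 and 215; no filter gave 2264 for body. Genes near 0 that changed sign, none of them called, were foxo (-0.016 with the block, -0.0083 to 0.45 leaving out single arrays), sNPF (-0.015 with the 3′ covariate, -0.011 to 0.19 leaving out single arrays), repo (0.000346 with array weights) and nSyb (-0.022 with array weights, -0.031 with loess, -0.086 and -0.023 with the fixed and random block, -0.083 to 0.17 leaving out single arrays). Taking misplaced entries off 6 lists, chosen after the data were seen, moved no count by over 1.5 times. The cause of these shifts was not tested. Signal over background limits genes near 4.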

Other observations

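Some cuticle and hormone metabolism genes also changed in head. Of 28 tested cuticle protein genes, 9 fell and 3 rose (42.9% in all, against 25.5% of all tested features), with a median of -0.02. The count of rises was 7 without the 0 h array of replicate 5, 1 without the 48 h array of replicate 1, and 9 with the pool as a block. Cpr60D gave 8.89, 7.76, 8.14, 8.10 and 6.72 at 0 h and 4.69, 4.57, 3.89 and 4.43 at 48 h. Its groups were separate, 1 of the 48 h arrays was below 4, and it fell by 3.53 ± 0.40. Of 10 tested genes of juvenile hormone and ecdysone metabolism, 2 rose and 2 fell (40% in all), with a median of 0.18. Both rises were lost without the 0 h array of replicate 1 or 4 or the 48 h array of replicate 2 or 4. Jhe, a juvenile hormone esterase, fell by 1.13 ± 0.15 and Jheh2, a juvenile hormone epoxide hydrolase, by 0.88 ± 0.12. speck, which acetylates monoamines, fell by 1.30 ± 0.25, and the amino acid transporter gene mnd by 0.96 ± 0.13.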
